A study of Mus musculus with 6 samples.

Results

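The semaphorins, plexins and neuropilins form a family of guidance ligands and their receptors, and 31 genes of the 53858 in the count table belong to it. They were taken by symbol: 20 semaphorin ligands of vertebrate classes 3 to 7, 9 plexins and 2 neuropilins. RNA sequencing was done on 6 libraries of spinal cord motor neurons from wild-type (WT) mice after a sciatic nerve crush, labelled as Day 6. In both groups the membrane dye DiO was placed proximal to the injury on day 0 and taken up by injured axons, and DiI was placed in the distal nerve on day 2. The 3 DiO-only libraries hold neurons with DiO and no DiI (DiO+/DiI-), and the 3 double-labelled libraries hold neurons with both dyes (DiO+/DiI+), whose axons had reached the distal dye. The study set out to compare transcripts of motor neurons of low and high regenerative ability, and dye content is what stands for that ability here. No uninjured neurons are among these samples, so the values say nothing of a change with injury. Each library is a pool of 10 to 15 picked cells (up to 20 at lysis), amplified over 20 PCR cycles. Sex, age and strain are not given in the labels, and neither is whether pools come from separate animals, so a p-value measures only the spread between pools.

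Semaphorins steer growing axons, mostly by repulsion, and several are also made by adult neurons. Class 3 semaphorins are secreted and act through a complex in which a neuropilin binds the ligand and an A-type plexin carries the signal. Most class 4 to 7 semaphorins stay on the membrane and bind plexins directly. The cytoplasmic part of a plexin acts on small GTPases of the Ras and Rap families, and collapsin response mediator proteins (CRMPs) relay part of the response to the cytoskeleton. Adult spinal motor neurons are known to express *Sema3a* together with neuropilins and A-type plexins.

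Library totals ran from 2997714 to 6563403 counts, and 15657 to 22118 genes had a count. The 31 genes together held 0.0806 to 0.164% of the counts of a library. Motor neuron markers were present in every pool, with a summed level of 7724 to 15919 CPM, the read count relative to the library's total after correction by edgeR's TMM factor. Markers of other cells were present too. Oligodendrocyte and most astrocyte markers stood higher in the double-labelled pools, although no marker passed the adjusted threshold of the test described further on. Of the oligodendrocyte markers, 10 of 10 were higher in the double-labelled pools, and 7 (70.0%) had an unadjusted p under 0.05. Over all tested genes, 51.3% were higher, 3.18% were higher at that p, and 5.86% were higher with groups that did not overlap. Their summed level was 280.4 to 577 CPM in the DiO-only and 1433 to 4876 CPM in the double-labelled pools. Of 8 tested astrocyte markers, 7 were higher, and 5 (62.5%: *Slc1a2*, *Atp1b2*, *Aqp4*, *Gja1* and *Fgfr3*) had an unadjusted p under 0.05 and groups without overlap. *Aldh1l1* was lower, with 1.30, 11.9 and 52.2 CPM in the DiO-only and 0, 12.7 and 14.5 CPM in the double-labelled pools. The summed astrocyte level, most of it *Aldoc*, was 374 to 754 CPM in the DiO-only pools and 1928, 469.5 and 1072 CPM in double-labelled pools 1, 2 and 3. Microglial sums were 82.2 to 85.6 against 48.3 to 109.7 CPM, and endothelial sums 4.78 to 36.8 against 4.25 to 5.81 CPM. The 4 tested microglial markers were all lower in the double-labelled pools, none with an unadjusted p under 0.05. Among them *Csf1r* had groups without overlap, at 23.6 to 28.2 CPM in the DiO-only and 14.5 to 16.5 CPM in the double-labelled pools. Over all tested genes, 7.07% were lower without overlap. In pooled cells, a smaller number of cells of a type and less RNA per cell cannot be told apart.

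Of the 31 genes, 25 had at least 10 counts over the 6 libraries. The other 6 are reported as not expressed: *Sema3b* (8 counts in all), *Sema3f* and *Sema3g* (0 counts), *Sema4c* (5), *Plxnb3* (9) and *Plxnd1* (8). In a single library, 3 counts correspond to 0.457 to 1.00 CPM, so levels under that were not detectable at this depth. On a scale that allows genes to be compared (CPM per kb of merged exons), *Sema6a*, a transmembrane semaphorin that binds plexins A2 and A4, was the most abundant ligand in 6 of 6 libraries, with 39.7 ± 11.4 CPM per kb (SD, n = 3) in the DiO-only and 30.6 ± 11.1 in the double-labelled pools. *Plxna4*, a receptor component for *Sema3a* and *Sema6a*, was the most abundant receptor in 4 libraries (24.1 ± 5.67 and 14.8 ± 7.22 CPM per kb), and *Nrp2*, the neuropilin preferred by *Sema3f*, in the other 2 (18.0 ± 12.6 and 12.6 ± 10.3). *Sema4f*, a transmembrane semaphorin, followed closely with 23.6 ± 10.8 and 13.7 ± 4.45 CPM per kb. The last 3 lay within each other's spread in both groups and their order is not resolved. Below them came *Sema3c*, *Plxna1*, *Sema6d* and *Nrp1*, with mean levels over all libraries of 9.72, 9.06, 6.63 and 6.04 CPM per kb. *Sema3a* and *Plxna3*, described more fully with the comparison of the groups, had lower levels, at 1.62 and 3.74 CPM per kb.

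**Figure D1:**
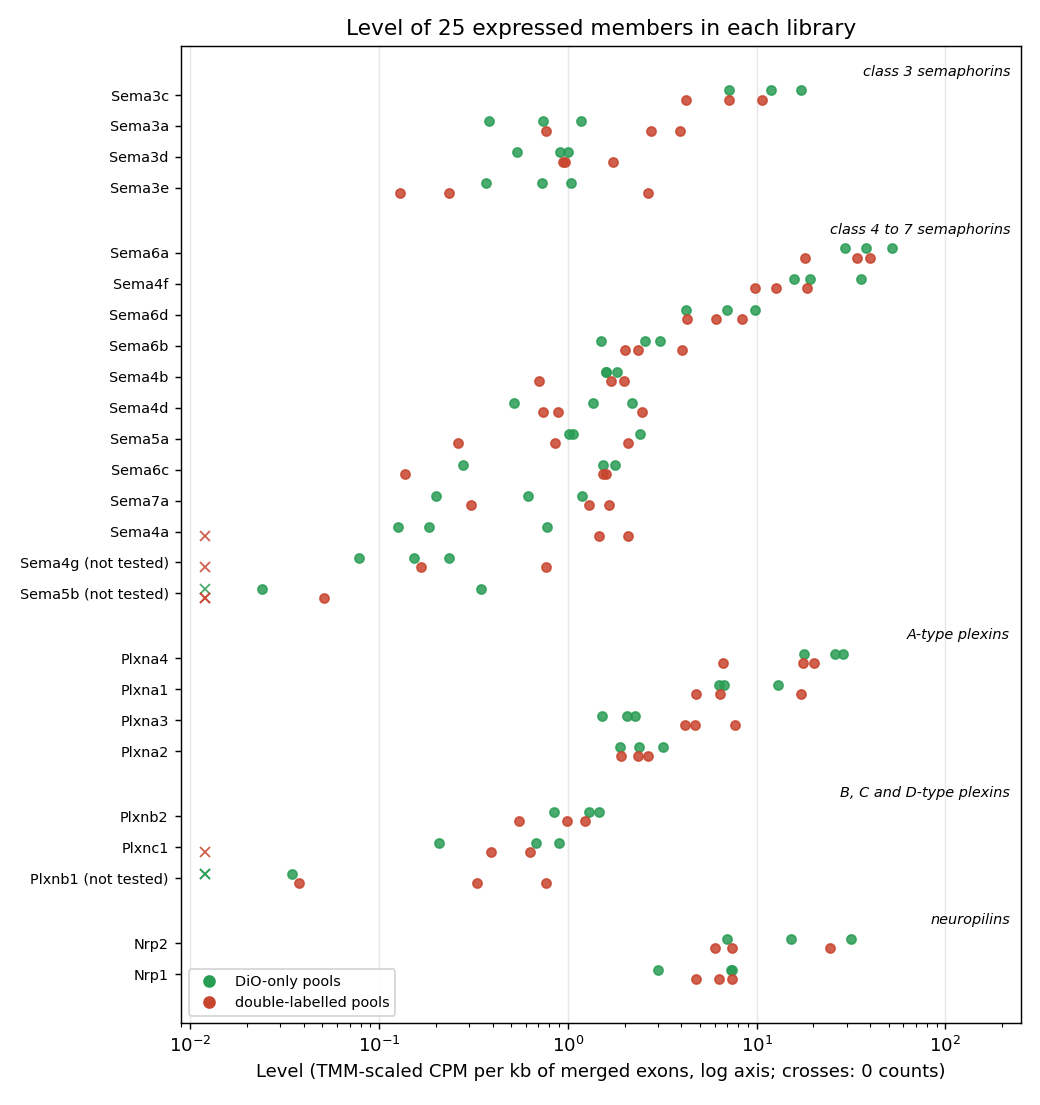
Level of the 25 genes with at least 10 counts, as TMM-scaled CPM per kb of merged exons on a log axis, ordered within role classes by mean level; each point is a library, green for DiO-only and red for double-labelled pools, and crosses mark 0 counts. *Sema6a*, *Sema4f*, *Plxna4* and *Nrp2* lie furthest to the right, and the *Plxna3* points of the groups do not overlap.

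Between the groups, no member passed the threshold of 0.05 on the adjusted p of edgeR's quasi-likelihood test with Benjamini-Hochberg adjustment over all 12954 tested genes. Adjusted p ran from 0.609 to 0.999 over the 22 members that could be tested. Over the whole table edgeR also called 0 genes (0.0% of those tested; 753 genes, or 5.81%, had an unadjusted p under 0.05), and its smallest adjusted p was 0.308. DESeq2 called 75 genes and limma voom 0, and neither called a member. The members with an unadjusted p under 0.05 in edgeR were *Plxna3* and *Sema3a*, both higher in the double-labelled pools: 2 of 22, or 9.09%, beside 3.18% of all tested genes that were higher at that p. None of the 22 was lower at that p, beside 2.63% of all tested genes, but *Plxna4* and *Sema4f* were lower at that p with a replicate block (0.00843 and 0.0180) and without the filter on low counts (0.0433 and 0.0377). *Plxna3* was also the 1 member whose groups did not overlap, 4.55% of the members beside 12.9% of all tested genes (5.86% on the higher and 7.07% on the lower side). These shares do not set the family apart from the table as a whole.

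Of the 22 tested members, 9 were higher and 13 lower in the double-labelled pools, while 51.3% of all tested genes were higher and 48.7% lower. By role, 6 of 14 tested ligands were higher and 8 lower in the double-labelled pools, with a median log2 fold change (double-labelled against DiO-only) of -0.09. Of 8 tested receptors, 3 were higher and 5 lower, with a median of -0.24. The median over all tested genes was 0.02. The sign of the ligand median did not hold when libraries were left out: it was above 0 when any of 5 libraries was left out (up to 0.28) and -0.36 without double-labelled pool 2. Without DiO-only pool 2 the receptor median was 0.12. Summed over all 20 ligands, the level was 541, 950.0 and 695 CPM in DiO-only pools 1, 2 and 3, and 443, 697 and 608 CPM in double-labelled pools 1, 2 and 3. Receptor sums were 533, 992 and 762 CPM against 375, 771 and 661 CPM. Both sums overlapped between the groups.

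**Figure D2:**
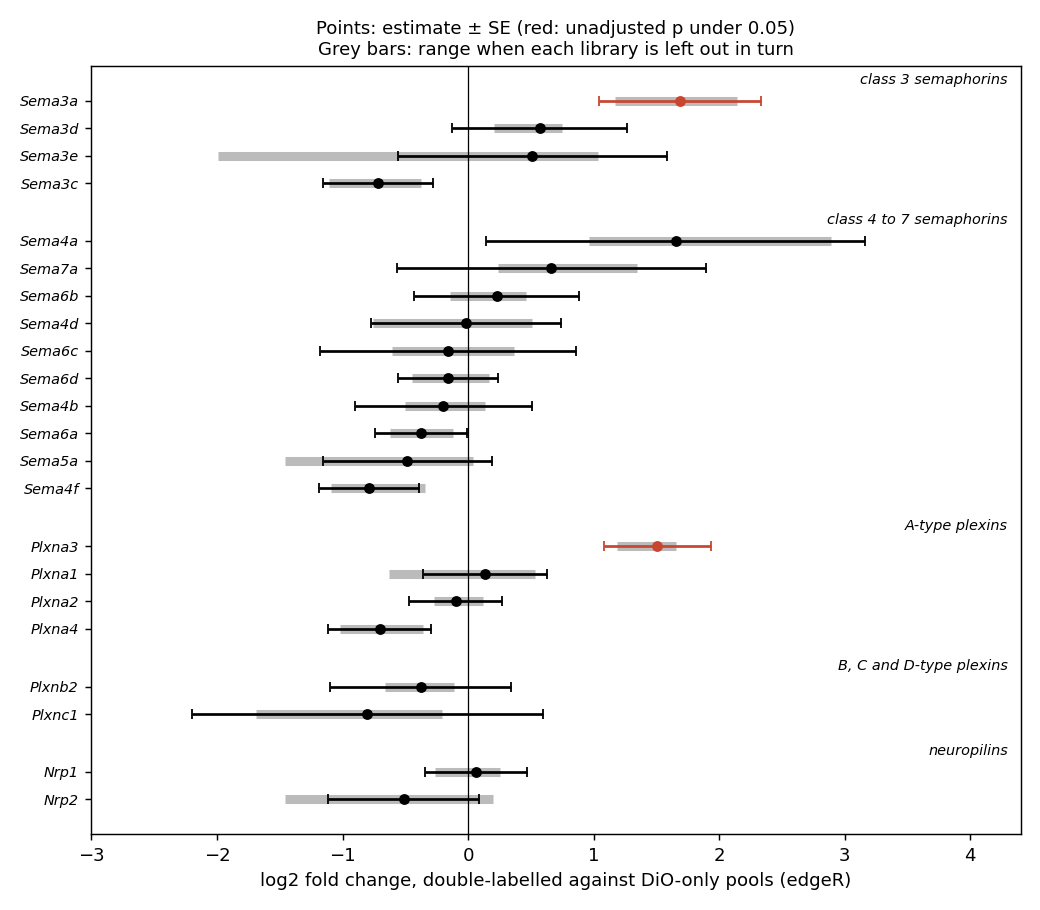
Log2 fold change of the 22 tested genes (points, with SE whiskers; red where the unadjusted p was under 0.05), and the range when each library was left out in turn (grey bars). *Plxna3* at 1.51 and *Sema3a* at 1.69 lie to the right of 0 over their whole range, whereas *Sema3e* spans -1.99 to 1.04.

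A RefSeq promoter sequence of *Plxna3* and of *Sema3a* is shown because these are the members with the smallest p in the comparison. Each is the 250 bases before an annotated transcript start in GRCm38.p6, both on the plus strand, at chrX:74328816-74329065 for *Plxna3* and chr5:13396534-13396783 for *Sema3a*. The *Plxna3* window lies directly before the gene. The *Sema3a* window lies before 1 of several annotated starts, inside the longer gene model of GENCODE, so it is an internal promoter window and not the sequence upstream of the whole gene, and which start these neurons use was not examined. Capitals mark CG dinucleotides.

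Plxna3: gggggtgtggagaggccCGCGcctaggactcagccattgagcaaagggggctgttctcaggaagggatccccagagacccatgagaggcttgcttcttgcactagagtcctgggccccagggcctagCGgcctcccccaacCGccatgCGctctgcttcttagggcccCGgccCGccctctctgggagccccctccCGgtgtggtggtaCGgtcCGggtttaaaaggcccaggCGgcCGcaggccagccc
Sema3a: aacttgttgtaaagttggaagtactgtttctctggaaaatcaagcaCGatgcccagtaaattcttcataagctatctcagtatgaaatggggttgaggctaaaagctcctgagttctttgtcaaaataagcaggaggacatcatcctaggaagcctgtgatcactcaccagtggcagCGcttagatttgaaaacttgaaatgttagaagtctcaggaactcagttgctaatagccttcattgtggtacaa

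The *Plxna3* window held 68.0% G and C and 12 CG dinucleotides, and the *Sema3a* window 40.8% and 2, beside medians of 52.4% and 6 over 32851 promoter windows of the same length. Neither window held TGANTCA, the AP-1 consensus, or TGACGTCA, the cAMP response element, on either strand. These motifs occurred in 6.75% and 1.55% of all promoter windows. An absent match says only that these letters are not in the window. Windows were taken for 26 of the 31 genes. Entries on chromosome 18, where *Sema6a* lies, were not used for the members.

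Among the secreted class 3 semaphorins, *Sema3c*, *Sema3a*, *Sema3d* and *Sema3e* were expressed. All 4 lie on the plus strand of chromosome 5, within 5.35 Mb. *Sema3a* (ENSMUSG00000028883, chr5:13125414-13602565) repels axons through neuropilin 1 and A-type plexins. Its level was 16.2, 10.3 and 5.29 CPM in DiO-only pools 1, 2 and 3, and 38.1, 54.5 and 10.6 CPM in double-labelled pools 1, 2 and 3. Double-labelled pools 1 and 2 were above every DiO-only pool, but double-labelled pool 3 was below DiO-only pool 1, so the groups overlap. The means were 10.6 ± 5.47 and 34.4 ± 22.2 CPM (SD, n = 3), and the log2 fold change was 1.69 ± 0.65 (SE; adjusted p = 0.742 in edgeR's quasi-likelihood test, 0.316 in DESeq2). The unadjusted p was 0.0236 with all libraries, 0.0545 without DiO-only pool 2, 0.0831 without DiO-only pool 3 and 0.136 without double-labelled pool 2. Across the double-labelled pools *Sema3a* was highest in pool 2, which had the smallest oligodendrocyte marker sum of that group (1433 CPM), and lowest in pool 3, which had the largest (4876 CPM). The part of other cells in the *Sema3a* values was not tested.

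*Sema3c*, which binds both neuropilins, was the main secreted ligand, with 50.8, 123 and 85.6 CPM in the DiO-only and 76.3, 50.8 and 30.2 CPM in the double-labelled pools. The groups overlapped, with the highest value in DiO-only pool 2 and the lowest in double-labelled pool 3 (log2 fold change -0.72 ± 0.44, adjusted p = 0.929 in edgeR). As a share of the CPM per kb of the class, *Sema3c* was 74.5, 86.1 and 87.8% in the DiO-only and 62.6, 54.7 and 69.7% in the double-labelled pools. The *Sema3a* share was 12.2, 3.71 and 2.79% against 16.1, 30.2 and 12.6%. On this scale neither gene overlapped between the groups: the share of *Sema3a* in every double-labelled pool was above that in every DiO-only pool. No test was made of these shares, which are not independent of the *Sema3a* level itself.

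*Sema3d* had 4.63 to 8.62 CPM in the DiO-only and 8.11 to 14.9 CPM in the double-labelled pools (log2 fold change 0.57 ± 0.70). For *Sema3e*, the ligand of plexin D1, double-labelled pool 1 stood alone with 24.7 CPM beside 1.20 to 9.61 CPM in the other 5 libraries. Its log2 fold change was 0.51 ± 1.07 with that pool and -1.99 without it. The *Sema3e* receptor gene *Plxnd1* itself had counts only in DiO-only pool 3.

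Of the 13 membrane-attached semaphorins of classes 4 to 7, 10 were tested, 3 of them higher and 7 lower in the double-labelled pools (median log2 fold change -0.16, adjusted p 0.881 to 0.999 in edgeR). *Sema6a* had 258, 455 and 332 CPM in the DiO-only and 159, 297 and 348 CPM in the double-labelled pools. Pools of the groups interleaved, with double-labelled pool 3 above 2 of the 3 DiO-only pools, and the log2 fold change was -0.38 ± 0.36 (adjusted p = 0.970 in edgeR). *Sema4f* had 83.4, 189.6 and 101 CPM against 51.8, 98.0 and 67.1 CPM. Only double-labelled pool 2 reached into the DiO-only range, and the log2 fold change was -0.79 ± 0.40 (unadjusted p = 0.0729, adjusted p = 0.881 in edgeR).

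The other 8 tested genes of these classes had log2 fold changes from -0.48 (*Sema5a*, a semaphorin with thrombospondin repeats) to 1.66 (*Sema4a*). *Sema4a* rests on low and uneven values, 4.20, 0.994 and 0.682 CPM against 7.95, 11.3 and 0 CPM, and its SE was 1.51. *Sema4d*, the ligand of plexin B1, which oligodendrocytes are known to make, had 16.8, 3.98 and 10.4 CPM in the DiO-only and 5.71, 18.9 and 6.78 CPM in the double-labelled pools. Its log2 fold change was -0.02 ± 0.76, on 12 to 116 counts per pool. The oligodendrocyte marker sums of the groups did not overlap, and the part of those cells in the *Sema4d* values was not tested. *Sema4b*, *Sema6b* and *Sema6c*, all transmembrane, had log2 fold changes of -0.20 ± 0.70, 0.23 ± 0.66 and -0.16 ± 1.02. *Sema6d*, a ligand of plexin A1, had 44.9 to 103 CPM and 45.3 to 88.2 CPM. *Sema7a*, which is anchored to the membrane by a lipid and binds plexin C1 and integrins, had 0.663 to 3.92 CPM and 1.02 to 5.45 CPM. *Sema4g* (76 counts) and *Sema5b* (19 counts) were expressed below the limit for testing. DiO-only pool 1 held most of the *Sema5b* counts, and double-labelled pool 3 most of those of *Sema4g*.

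Among the receptors, *Plxna3* had the smallest p of the family. Plexin A3 is an A-type plexin that carries signals of class 3 semaphorins, above all with neuropilin 2. The gene (ENSMUSG00000031398) lies on the plus strand at chrX:74329066-74344689. Its level was 17.8, 11.9 and 16.2 CPM in DiO-only pools 1, 2 and 3, and 37.3, 33.0 and 60.6 CPM in double-labelled pools 1, 2 and 3. Every double-labelled pool was above every DiO-only pool, and pool 3 was the highest. The means were 15.3 ± 3.03 and 43.7 ± 14.8 CPM (SD, n = 3). The log2 fold change was 1.51 ± 0.43, with an adjusted p of 0.609 in edgeR's quasi-likelihood test and 0.132 in DESeq2, so the gene did not pass either. With each library left out in turn it lay between 1.18 and 1.65, and the unadjusted p (0.00451 with all libraries) between 0.00405 and 0.0239. The order of *Plxna3* over the double-labelled pools (2, then 1, then 3) was also that of the oligodendrocyte marker sum, at 1433, 2897 and 4876 CPM. It was that of several astrocyte markers too, such as *Atp1b2*, at 18.9, 51.8 and 98.8 CPM, beside 3.91 to 5.97 CPM in the DiO-only pools. The part of oligodendrocytes and astrocytes in the result was not tested.

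**Figure D3:**
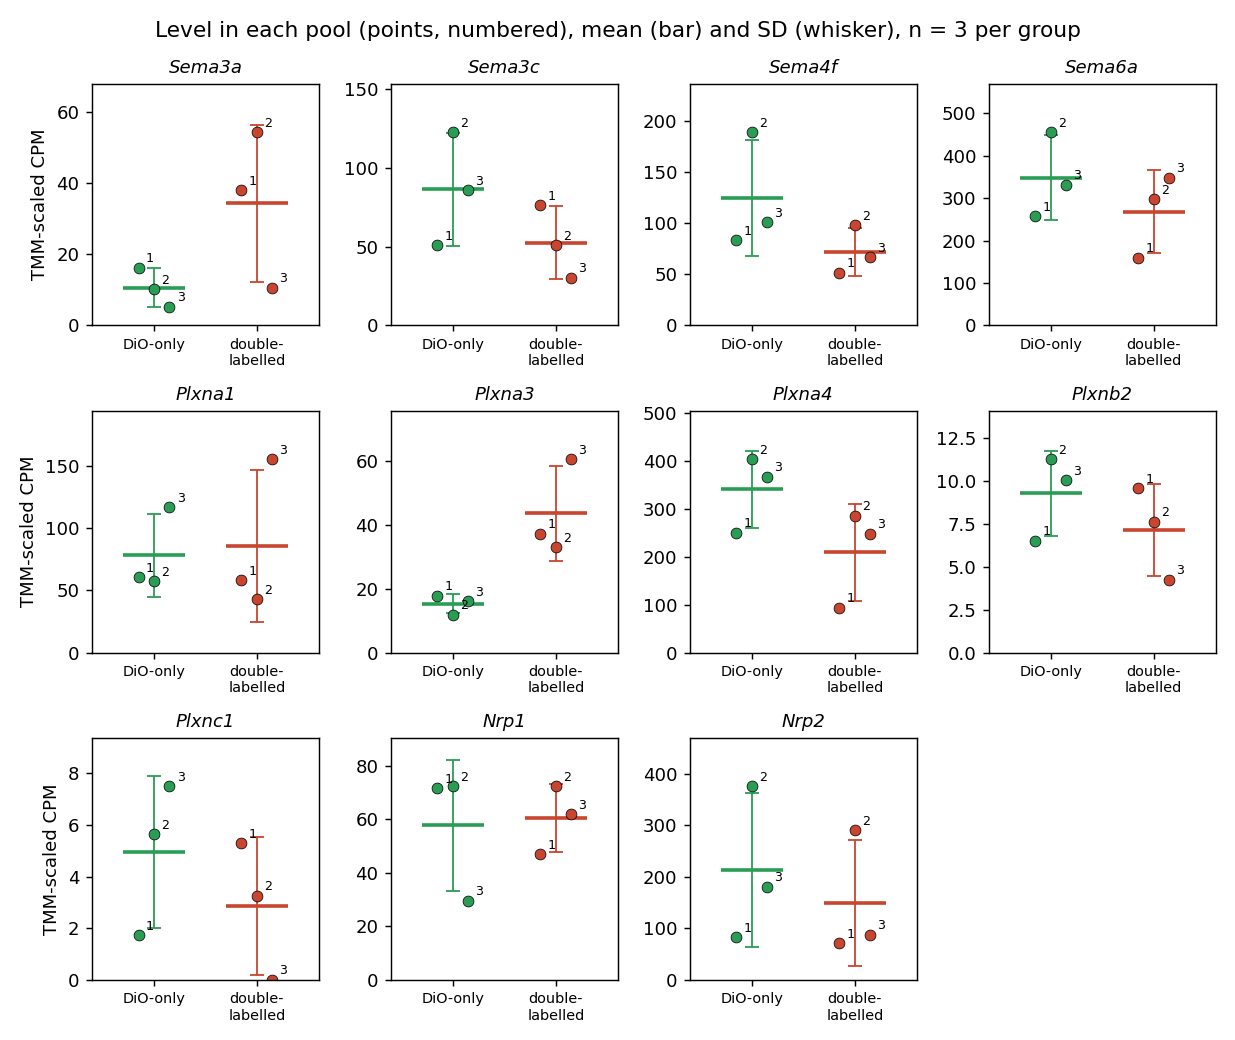
Level in TMM-scaled CPM of the 11 genes described pool by pool, each panel with its own axis from 0; points are pools with their numbers, bars are means and whiskers SD (n = 3 per group). *Plxna3* is the panel in which the 3 double-labelled pools (33.0 to 60.6 CPM) lie above all DiO-only pools (11.9 to 17.8 CPM).

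*Plxna4* had 250.3, 403 and 367 CPM in the DiO-only and 93.4, 286 and 248 CPM in the double-labelled pools. Double-labelled pools 1 and 3 were under the DiO-only range and pool 2 within it, and the log2 fold change was -0.70 ± 0.41 (adjusted p = 0.915 in edgeR). *Plxna1*, the receptor of *Sema6d* and a partner of neuropilin 1, had 60.7, 57.3 and 117 CPM against 58.3, 43.2 and 156 CPM. Pool 3 was the highest of both groups, and the log2 fold change was 0.13 ± 0.49, which turned to -0.63 without double-labelled pool 3. *Plxna2*, a receptor of *Sema6a*, ranged from 32.6 to 54.7 CPM and from 33.0 to 45.7 CPM (-0.10 ± 0.37). Antisense genes overlap exons of *Plxna1* (970 bases, 412 counts beside 2854) and *Plxna4* (110 bases, 500 counts beside 8204). Without the strand setting, reads of the overlapping stretches cannot be told apart.

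Taken as shares of the CPM per kb of the 4 A-type plexins, *Plxna3* made up 7.77, 3.82 and 4.79% in DiO-only pools 1, 2 and 3 (5.46 ± 2.06%) and 23.1, 13.5 and 17.2% in double-labelled pools 1, 2 and 3 (17.9 ± 4.89%). These ranges did not overlap. *Plxna4* made up 61.0, 72.2 and 60.7% against 32.4, 65.0 and 39.2%, where double-labelled pool 2 lay among the DiO-only pools. A library's depth and scaling drop out of such shares, but they follow from the same levels and were not tested.

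**Figure D4:**
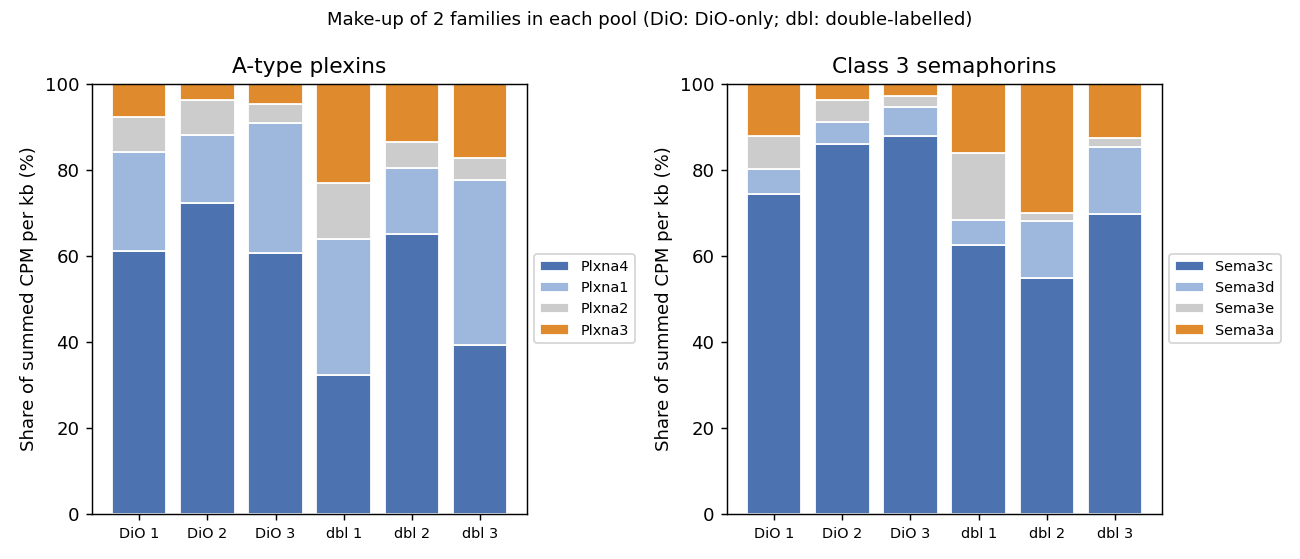
Share of each gene in the summed CPM per kb of the A-type plexins (left) and of the 4 expressed class 3 semaphorins (right), in percent, 1 stacked bar per pool. The top segment, *Plxna3* on the left and *Sema3a* on the right, is at most 7.77% and 12.2% in the DiO-only pools and at least 13.5% and 12.6% in the double-labelled pools.

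Plexins of the B, C and D types were low. *Plxnb2*, a receptor of class 4 semaphorins, had 6.51, 11.3 and 10.1 CPM in the DiO-only and 9.58, 7.63 and 4.25 CPM in the double-labelled pools. The groups overlapped, with a log2 fold change of -0.38 ± 0.72 (adjusted p = 0.987 in edgeR). *Plxnc1*, the receptor of *Sema7a*, had 1.74, 5.64 and 7.50 CPM against 5.30, 3.27 and 0 CPM, a log2 fold change of -0.80 ± 1.40. For *Plxnb1*, the receptor of *Sema4d*, there were 0, 1 and 0 counts in DiO-only pools 1, 2 and 3 and 36, 1 and 24 counts in double-labelled pools 1, 2 and 3. It did not reach the counts needed for the main test. DESeq2, which was run on all genes with a count, gave it an adjusted p of 0.204. The counts came from pools 1 and 3, which had the larger oligodendrocyte marker sums of that group, and the part of those cells was not tested.

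Both neuropilins, which bind class 3 semaphorins as well as vascular endothelial growth factors, were expressed in every pool. *Nrp1*, the neuropilin that binds *Sema3a*, had 71.5, 72.3 and 29.5 CPM in the DiO-only and 46.9, 72.3 and 62.0 CPM in the double-labelled pools. The means of 57.8 ± 24.5 and 60.4 ± 12.8 CPM differed by less than the spread between pools (log2 fold change 0.06 ± 0.41, adjusted p = 0.993 in edgeR). *Nrp2* had 82.8, 376 and 181 CPM against 71.4, 290.1 and 87.4 CPM. Pool 2 was the highest in both groups, and the log2 fold change was -0.51 ± 0.60 (adjusted p = 0.977 in edgeR), or 0.19 without DiO-only pool 2. *Nrp2* made up 48.9, 81.1 and 83.5% of the neuropilin CPM per kb in the DiO-only and 55.7, 76.8 and 53.8% in the double-labelled pools. These shares overlapped, and *Nrp1* was the more abundant neuropilin per length in DiO-only pool 1 only.

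Of 68 partner and downstream genes of the pathway, 57 were tested, and 20 were higher and 37 lower in the double-labelled pools (median log2 fold change -0.10). None passed the adjusted threshold in edgeR. At an unadjusted p under 0.05 there were 4 (7.02%, beside 5.81% of all tested genes): *Pgf* was higher, and *Crmp1*, *Rnd1* and *Rap1b* were lower. Groups did not overlap for 8 genes (14.0%, beside 12.9% of all tested genes), which were *Pgf* and *Farp2* on the higher side and *Crmp1*, *Pak1*, *Rac1*, *Rap1b*, *Rnd1* and *Rras2* on the lower side.

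*Pgf*, placental growth factor, binds neuropilins and the receptor Flt1. It had 15.5, 6.96 and 4.94 CPM in the DiO-only and 38.7, 42.5 and 35.2 CPM in the double-labelled pools. The double-labelled pools lay close together and well above the DiO-only pools, with means of 38.8 ± 3.63 and 9.13 ± 5.60 CPM (SD, n = 3). Its log2 fold change of 2.07 ± 0.52 had an adjusted p of 0.476 in edgeR's quasi-likelihood test and 0.0419 in DESeq2, the latter under the threshold. *Flt1*, which is also an endothelial marker, had 4, 18 and 19 counts in the DiO-only and 0, 1 and 3 counts in the double-labelled pools. It was below the count limit of the main test, and DESeq2 gave it an adjusted p of 0.472 (unadjusted 0.0277, on the lower side).

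Of the intracellular genes, *Crmp1*, a CRMP that relays the response to *Sema3a*, had 171, 259 and 263 CPM against 76.1, 153 and 141 CPM (log2 fold change -0.91 ± 0.35, adjusted p = 0.742 in edgeR). *Rnd1*, whose product binds the cytoplasmic part of plexins, had 119, 64.3 and 104 CPM against 54.2, 57.7 and 51.6 CPM (-0.81 ± 0.34, adjusted p = 0.783). *Rap1b*, of the Rap GTPases on which plexins act, had 83.5, 63.3 and 70.1 CPM against 24.7, 41.0 and 52.9 CPM (-0.87 ± 0.37, adjusted p = 0.802). In all 3 the DiO-only pools lay above the double-labelled pools without overlap. *Rras2*, a Ras-family GTPase, had 19.8, 18.2 and 19.4 CPM against 2.24, 9.80 and 10.4 CPM (-1.36 ± 0.66, adjusted p = 0.872). *Chl1*, an adhesion molecule of the L1 family and co-receptor for class 3 semaphorins, had 303, 591 and 419 CPM against 241, 259 and 318 CPM (-0.68 ± 0.33, adjusted p = 0.871), with overlap.

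By contrast, *L1cam*, another co-receptor of that family, *Fyn*, a tyrosine kinase of plexin signalling, and *Rhoa* showed differences smaller than their standard errors, at -0.16 ± 0.37, -0.03 ± 0.39 and -0.16 ± 0.38 on the log2 scale. *Dpysl2*, a CRMP that binds tubulin, had 243, 424 and 233 CPM against 856, 309.8 and 251 CPM. Double-labelled pool 1 alone stood above the DiO-only range, and the log2 fold change of 0.66 ± 0.47 was -0.11 without it. Exons of *Rhoa* overlap those of an antisense gene, *Gm37401*, and of *Tcta* on the opposite strand.

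**Figure D5:**
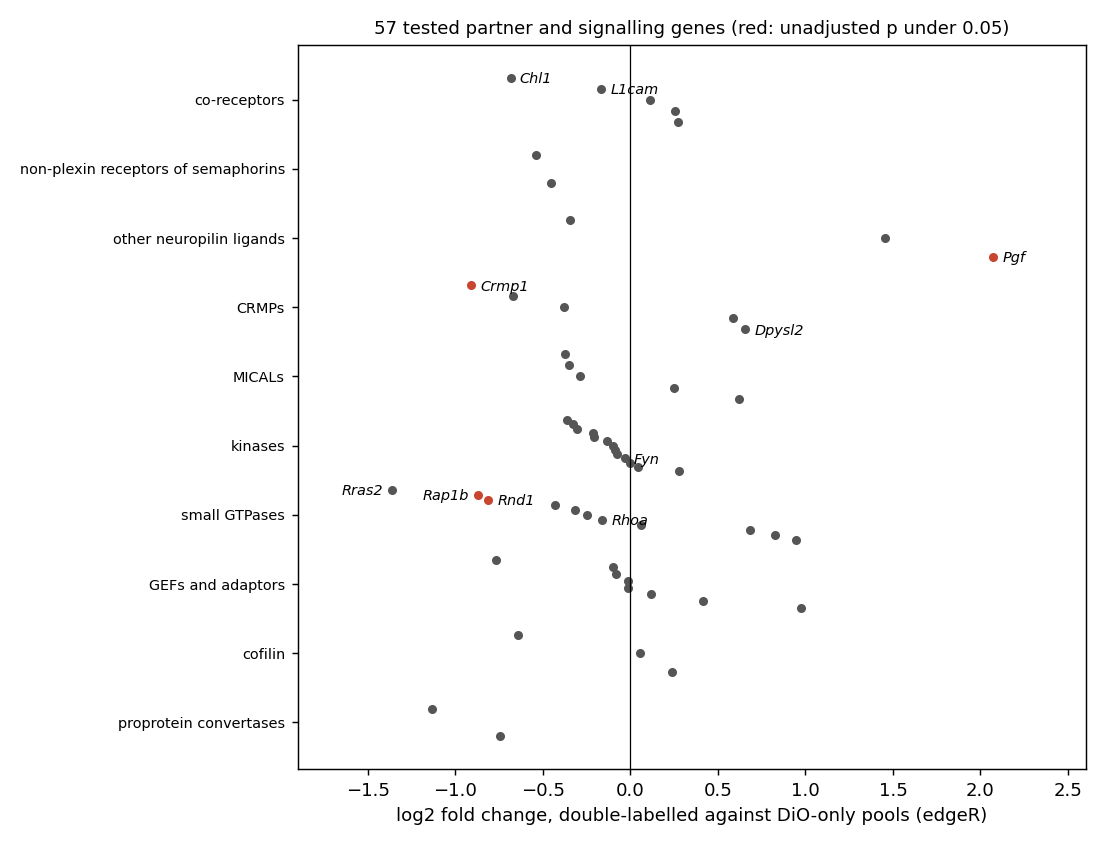
Log2 fold change of the 57 tested partner and signalling genes by functional class, red where the unadjusted p was under 0.05; named are the genes described in the text. *Pgf* lies furthest to the right at 2.07, *Rras2* furthest to the left at -1.36, and among the kinases all values lie between -0.36 and 0.28.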

How the data were processed

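The deposited values are whole-number read counts per Ensembl gene; per the submitters' processing notes, the authors used FastQC, HISAT2 and HTSeq with mm10. For the tool versions, the annotation and the strand setting, the sources used here give nothing. Of 53858 genes, 25345 had 0 counts throughout. The labels name 3 batches without assigning libraries to them, so how the batches fall across the groups is not known.

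Libraries were grouped by dye label, 3 against 3. edgeR 4.0.16 in R 4.3.3 was run on the counts as deposited: filterByExpr by group (12954 genes, 99.2% of counts), TMM scaling, robust quasi-likelihood F-test, two-sided, Benjamini-Hochberg adjustment over all tested genes, threshold 0.05. The common biological coefficient of variation was 0.587. The procedure was tested on simulated data. Standard errors were derived from each F statistic and its fold change. Exon lengths and coordinates, 1-based, are from GENCODE M21 (GRCm38); all 31 members matched. Members passed the filter partly through the group in which they are high, so counts and medians over the tested members are descriptions only. Read counts carry no molecular identifiers, so counting limits cover counting error only.

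Members under 10 counts were called not expressed. Values per pool were given for tested members with an unadjusted p under 0.05 or without overlap. They were also given for the 2 most abundant tested members of each role class and for the 6 signalling genes of smallest p. *Dpysl2*, *L1cam*, *Fyn* and *Rhoa* were named by rule whatever their test, *Dpysl2* with values per pool and the others with fold changes only. *Sema4a*, *Sema4d*, *Sema4g*, *Sema5b*, *Sema3e* and *Plxnb1* were singled out after their values were seen, as were *Farp2*, *Pak1* and *Rac1*. The members and lists were chosen with earlier results of these data known. Alternatives were other scalings and filters, DESeq2 1.42.0, limma 3.58.1 (voom with sample quality weights), a replicate term and leaving out each library.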

Additional observations from a re-analysis of the deposited data

How the results depend on the processing

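No setting called a member at an adjusted p under 0.05, and the lowest adjusted p of any member was 0.132, for *Plxna3* in DESeq2. Over the whole table, where the main test called 0 genes, DESeq2 called 75, edgeR without a filter on low counts 79, and edgeR with the replicate block 23. Members at an unadjusted p under 0.05 numbered 2, but 5 without the filter (*Plxna3*, *Sema3a* and *Plxnb1* higher, *Plxna4* and *Sema4f* lower), 4 with the replicate block (the same without *Plxnb1*), and 1 (without DiO-only pool 3) to 4 (without double-labelled pool 2) with a library left out. Signalling genes at that p numbered 4, but 7 in DESeq2 and in voom, 11 without the filter, 9 with the replicate block, 2 with total-count scaling and 2 to 7 with a library left out. Over the whole table, 753 of 12954 genes were at that p in the main test. Of the same 12954 genes there were 1066 with the replicate block, 984 in voom and 630 with total-count scaling. Of 28513 genes there were 1468 without the filter and 1404 in DESeq2. With a library left out there were 455 (of 13579) to 1276 (of 13808). Members without overlap numbered 1 to 7 with a library left out, where fewer samples make overlap rarer. The matching count over all tested genes was not made, so these numbers say nothing particular to the family. The ligand median was -0.22 with the replicate block and -0.36 to 0.28 with a library left out, and the receptor median -0.27 to 0.12. *Plxna3*, *Sema3a* and *Pgf* kept their direction under all 14 alternatives, with log2 fold changes of 1.18 to 1.65, 1.17 to 2.14 and 1.76 to 2.70.

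Of the genes named by rule, 6 changed sign under some setting, among them *Nrp2* (-0.51) and *Dpysl2* (0.66), whose differences are not near 0. *Fyn* was 0.10 in voom, 0.0019 with the replicate block, 0.0345 with total-count scaling, and -0.26 to 0.33 with a library left out (0.13 without double-labelled pool 3). *Plxna1* was -0.29 in voom, -0.0090 with the block, and -0.63 to 0.53 with a library left out (-0.03 and -0.04 without DiO-only pools 1 and 2). *Nrp2* was 0.10 in voom. With a library left out, *Nrp2* was -1.46 to 0.19 (highest without DiO-only pool 2), *Nrp1* -0.26 to 0.26 (lowest without DiO-only pool 3, and -0.11 without double-labelled pool 2), *Dpysl2* -0.11 to 0.99 and *L1cam* -0.51 to 0.13, the last 2 changing sign without double-labelled pool 1. The cause of these shifts was not tested.

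The labels do not say that numbers pair pools, so pairing was not assumed in the main test. Deviations of same-numbered pools correlated at 0.0742, 0.228 and 0.203, and those of differently numbered pools at -0.190 to 0.0230. Each of the 6 libraries correlated best with its own number, so a factor shared by number is possible and was not tested. With totals down to 2997714 counts, members under about 1.00 CPM cannot be compared.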

Other observations

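The pools numbered 2 stood out for this gene family. DiO-only pool 2 was the highest of the 6 libraries for 8 of the 22 tested members (36.4%, beside 16.4% of all tested genes), and double-labelled pool 2 for another 8 (36.4%, beside 14.2%). Double-labelled pools 1 and 3 were highest for 1 and 2 members (4.55% and 9.09%), beside 22.9% and 22.2% of all tested genes, and DiO-only pool 1 for 0. *Sema6a*, *Sema4f*, *Sema6d*, *Plxna4* and *Nrp2* each reached their highest value of the DiO-only group in pool 2. The pools numbered 2 were also the shallowest of their groups, with 3747145 and 2997714 counts, and had the smallest TMM factors, 0.805 and 0.919. The part of depth or scaling in this pattern was not tested, and whether the pools numbered 2 share a batch is not known. In the double-labelled group *Sema4f*, *Sema6d*, *Plxna4* and *Nrp2* were again highest in pool 2, whereas *Sema6a* was highest in pool 3 (348 CPM, beside 297 in pool 2) and *Sema3c* in pool 1.

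*Sema3e* and its receptor gene *Plxnd1*, like *Sema5a* and its receptor gene *Plxnb3*, are pairs in which the ligand was expressed and the receptor had fewer than 10 counts over all 6 libraries.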
